A study of Homo sapiens with 4 samples.

Results

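YAP and TAZ are related transcriptional co-activators that the Hippo kinase cascade holds in the cytoplasm. When they reach the nucleus they act mainly through TEAD DNA-binding proteins, and the genes most often used to read their activity encode secreted matricellular proteins, surface receptors and inhibitors that feed back on the pathway. The 10 genes described here, CCN1, CCN2, ANKRD1, AXL, MYOF, FJX1, NUAK2, AMOTL2, NT5E and PTPN14, are established targets of this kind. They were taken by name from 18377 genes with a probe set of a single symbol, each has 1 such probe set, and all 10 are among the 22 genes of a published YAP/TAZ target signature.

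RNA was profiled on Affymetrix whole-transcript arrays in 2 established lines of human lung adenocarcinoma cells, A549 and H441. Cells were collected 48 h after lipid transfection of siTAZ, an siRNA named for TAZ, or of the control siRNA siNTC. The groups were A549 with siTAZ, A549 with siNTC, H441 with siTAZ and H441 with siNTC, with 1 array each. All cells were transfected, so no group shows untransfected cells. One array per group allows no test within a line, and the sources used here do not give the siRNA sequences.

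Signals are the authors' log2 RMA values, and differences are siTAZ minus siNTC on that scale. The median of the whole table was 6.13, and the array medians ran from 6.05 to 6.25. The lung epithelium markers reached the table median on all 4 arrays (6 of 6), although EPCAM was at 6.74 and 6.65 on the A549 arrays with siTAZ and siNTC. Of 6 measured alveolar type II markers, 2 and 3 reached it in A549 with siTAZ and siNTC, and 5 on each H441 array, where NKX2-1 was at 9.57 with siTAZ and 9.14 with siNTC. No more than 1 of 4 measured leukocyte markers and 1 of 5 endothelial markers reached it on any array. These were CD14 in A549 (7.94 with siTAZ and 7.22 with siNTC) and KDR in H441 (7.84 with siTAZ and 7.64 with siNTC). The other leukocyte and endothelial markers, among them PTPRC, PECAM1 and VWF, reached it on none. Of 7 fibroblast markers, COL1A1 reached it on every array, LUM and COL3A1 on both H441 arrays and COL1A2 on the H441 siTAZ array.

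Marker signals also differed between the siTAZ and siNTC arrays. The 6 epithelial markers summed on the linear scale to 21587 with siTAZ and 27300 with siNTC in A549, where 4 were lower, and to 43867 with siTAZ and 50192 with siNTC in H441, where 6 were lower. KRT8 (-0.43 in A549 and -0.18 in H441), KRT18 (-0.32 and -0.19), KRT7 (-0.25 and -0.42) and KRT19 (-0.29 and -0.13) were lower in both lines. CDH1 (0.28 in A549 and -0.07 in H441) and EPCAM (0.09 and -0.13) were higher in A549 and lower in H441. The 6 alveolar type II markers summed to 477.8 with siTAZ and 456.1 with siNTC in A549 (4 higher and 2 lower). In H441 they summed to 2662 with siTAZ and 2084 with siNTC (5 higher and 1 lower). Among the higher ones in H441 were SFTPB by 0.67 and NKX2-1 by 0.43. SFTPC was lower in both lines (-0.38 in A549 and -0.13 in H441). The 7 fibroblast markers summed to 462.3 with siTAZ and 409.0 with siNTC in A549 (4 higher and 2 lower). In H441 they summed to 815.7 with siTAZ and 738.9 with siNTC (4 higher and 3 lower). COL1A1 was higher by 0.41 in A549 and 0.44 in H441 (limma adjusted p = 0.0536). LUM went the other way in H441, at -0.49, and had 0.14 in A549, where its signals were below the table median. The 4 leukocyte markers summed to 353.4 with siTAZ and 253.6 with siNTC in A549 (4 higher), CD14 by 0.72, and to 174.7 with siTAZ and 176.3 with siNTC in H441 (2 higher). The 5 endothelial markers summed to 172.3 with siTAZ and 178.9 with siNTC in A549 (1 higher), and to 392.9 with siTAZ and 360.0 with siNTC in H441 (3 higher). Of 18 markers tested, 0 passed the limma test over both lines. At an unadjusted limma p under 0.05 there were 8: KRT7, KRT8, KRT18, SFTPB, SFTPC, ABCA3, COL1A1 and CD14. SFTPC reached the table median only on the A549 siNTC array (6.36). It could enter the test only by being lower with siTAZ in A549, so its p gives no support. With an intensity trend in eBayes 5 markers passed (KRT7, KRT8, KRT18, SFTPB and COL1A1). Several of the marker shifts are as large as those of target genes described below, and their part in the results was not tested.

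WWTR1, the gene of TAZ, had 7.64 with siTAZ and 10.04 with siNTC in A549, and 7.47 with siTAZ and 9.61 with siNTC in H441. Its signal was 19.0% of control in A549 and 22.7% in H441. YAP1, the paralog, had 9.44 with siTAZ and 9.23 with siNTC in A549, and 10.55 with siTAZ and 10.46 with siNTC in H441 (limma adjusted p = 0.65). These WWTR1 differences of -2.40 in A549 and -2.14 in H441 were larger than that of any of the 10 target genes, the farthest from 0 being -1.28.

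Over both lines CCN1 fell, and ANKRD1 is set apart from the other genes because of how it entered the test (limma with cell line as a block, Benjamini-Hochberg adjusted p under 0.05 over 12740 tested genes). All 10 genes entered that test, ANKRD1 only through its A549 siNTC array, the 1 array on which it reached the table median. A gene that enters in this way has to be lower with siTAZ in A549, so its adjusted p of 0.0044 gives no support, and without the filter on dim genes it was 0.112. The other 8 genes did not pass. Of the 9 genes without ANKRD1, 1 was called lower, where 1.29% of all tested genes were, and 0 higher, where 1.19% were. With each array centred on its median, the split over all genes was 277 lower and 123 higher, against 164 and 151 as deposited. At an unadjusted limma p under 0.05, 5 of these 9 genes were lower, CCN1, MYOF, NUAK2, AXL and FJX1, where 6.51% of all tested genes were. NT5E was the 1 gene higher by that measure, where 6.74% of all tested genes were. The fit has 1 residual degree of freedom, and the labels name no separate cultures within a line. Its p-values set the mean of 2 single-array responses against a spread taken mostly from a prior over all genes (22.3 degrees of freedom). They do not measure the spread between cultures.

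The CCN1 call did not hold under every way of processing the arrays. With cyclic loess scaling its limma adjusted p was 0.100, with a difference of -0.54 over both lines, and without the filter on dim genes it was 0.0564. Over all alternatives run it ranged from 0.000183 to 1.0, the 1.0 coming from a fit without the cell line.

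The genes shared a direction more than a size. Of the 9 genes without ANKRD1, 7 were lower after siTAZ in both lines, CCN2 and NT5E were opposite in the 2 lines, and 0 were higher in both. Among all tested genes, 27.2% were lower in both lines. The median difference of the 9 was -0.36 in A549, where 8 were lower, against a median of 0.01 and 48.4% lower for all 11405 genes whose brighter A549 array reached the table median. In H441 it was -0.31, with 8 of the 9 lower, against 0.0048 and 48.8% for all 11911 such genes. ANKRD1 was lower in both lines as well. The 10 genes were chosen with earlier results of these data known, so these counts describe them and are not independent evidence of a direction.

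**Figure D1:**
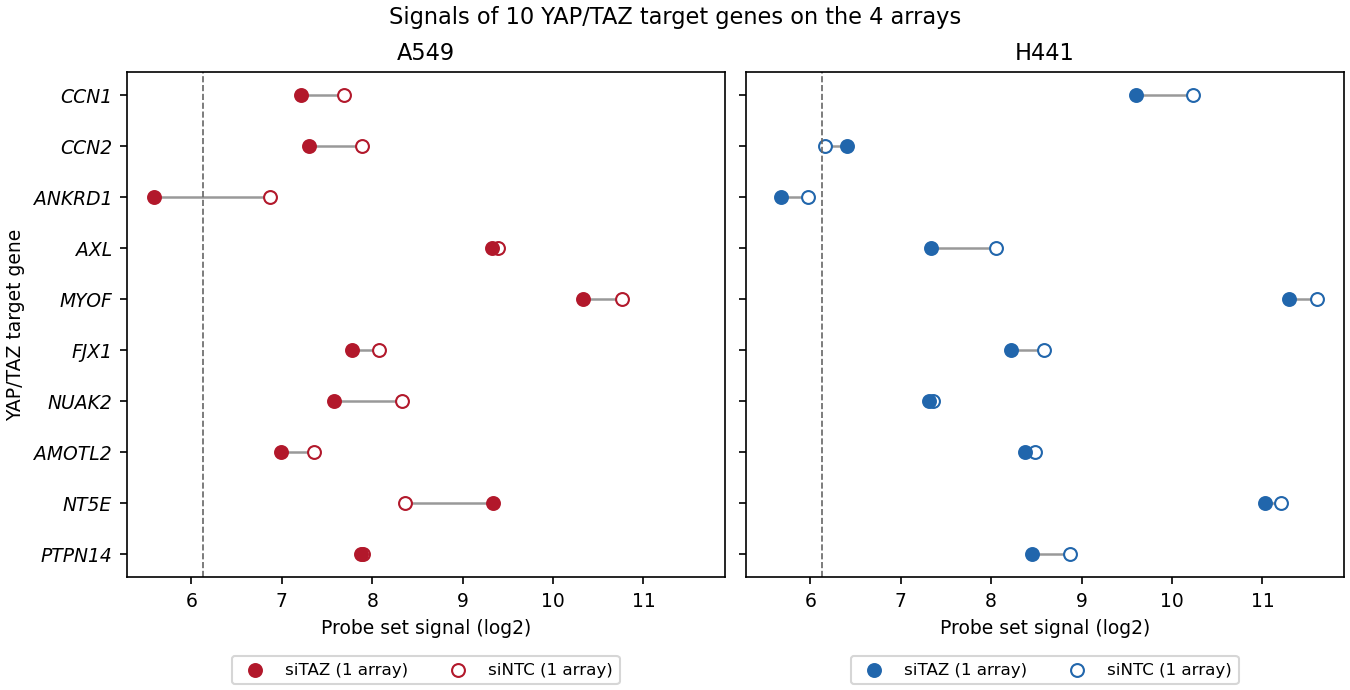
Log2 signals of the 10 target genes on the A549 arrays (left panel) and the H441 arrays (right panel), with filled points for siTAZ, open points for siNTC, 1 array per point, and a dashed line at the table median of 6.13. The siTAZ point lies left of the siNTC point for 9 genes in each panel, the exceptions being NT5E in A549 and CCN2 in H441.

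TEAD proteins bind the short DNA motif GGAATG, and 3 promoters that hold more than 1 copy of it, those of CCN2, ANKRD1 and NUAK2, are shown for that reason. The same 3 genes had the most negative differences of the 10 in A549, while in H441 CCN2 had 0.24 and NUAK2 -0.04. ANKRD1 entered the limma test only through its A549 siNTC array, and CCN1 could not be compared for lack of a window. A link between motif copies and responses was not tested. Windows from 250 bases before to 50 bases after the annotated start were taken from RefSeq (GRCh38.p14) for 9 of the 10 genes, 11 windows in all, with 2 each for AXL and AMOTL2. CCN1 had no window in the table. Both strands were searched. In these sequences, written 5′ to 3′ on the strand of the gene, capitals mark that motif or its reverse complement.
CCN2 (chr6:131951323-131951622, minus strand): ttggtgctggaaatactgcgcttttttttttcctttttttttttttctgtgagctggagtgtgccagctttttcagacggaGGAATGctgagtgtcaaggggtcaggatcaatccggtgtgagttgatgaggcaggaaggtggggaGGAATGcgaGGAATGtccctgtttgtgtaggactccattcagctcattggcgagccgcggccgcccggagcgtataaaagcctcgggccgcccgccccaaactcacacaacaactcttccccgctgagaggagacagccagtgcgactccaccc
ANKRD1 (chr10:90921038-90921337, minus strand): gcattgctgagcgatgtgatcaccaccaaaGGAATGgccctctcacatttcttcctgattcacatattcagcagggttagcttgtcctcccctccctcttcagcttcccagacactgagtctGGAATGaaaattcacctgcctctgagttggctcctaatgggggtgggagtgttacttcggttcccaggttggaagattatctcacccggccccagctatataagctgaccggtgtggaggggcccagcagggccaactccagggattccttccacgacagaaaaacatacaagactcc
NUAK2 (chr1:205321696-205321995, minus strand): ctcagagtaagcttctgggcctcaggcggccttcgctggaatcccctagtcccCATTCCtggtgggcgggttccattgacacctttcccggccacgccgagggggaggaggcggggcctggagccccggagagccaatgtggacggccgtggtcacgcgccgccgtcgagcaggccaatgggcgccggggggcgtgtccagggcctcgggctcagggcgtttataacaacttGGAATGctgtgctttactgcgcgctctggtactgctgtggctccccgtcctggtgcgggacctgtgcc

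In the CCN2 window the motif stood 3 times on the gene's own strand, beginning 169, 104 and 95 bases before the start, so that the last 2 copies are close neighbours. Only 0.128% of all 35116 promoter windows hold 3 or more. The ANKRD1 window had 2 copies, beginning 220 and 128 bases before the start, and the NUAK2 window had 2, beginning 197 and 18 bases before it, the farther one on the opposite strand. Of all windows, 1.37% hold 2 or more. Single copies were found in 1 window each of AXL, AMOTL2 and PTPN14, so that 6 of 11 windows had at least 1, where 14.0% of all windows do. For the 12 other genes of the signature 7 windows were available, and 3 of these 7 had at least 1, so the motif was not particular to the 10 genes. The windows of MYOF, FJX1 and NT5E had 0. TGANTCA, a loose form of the AP-1 motif that allows any base at N, reads the same on both strands and overlapped no TEAD motif here. Of the 11 windows of the target genes, only the ANKRD1 window held it, beginning 195 bases before the start and reading tgattca there. Of the 7 windows of the other signature genes, 1 held it as well. This loose pattern is held by 7.71% of all windows. A match of letters is a description and was not tested as a binding site.

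**Figure D2:**
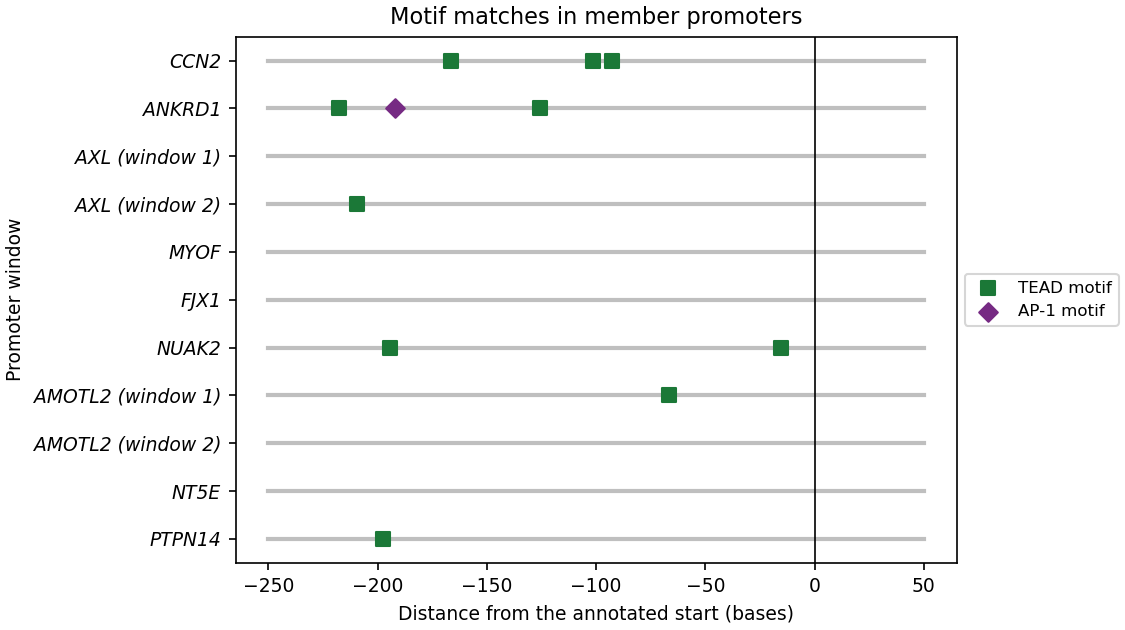
Positions of TEAD motif matches (green squares) and of matches of the loose AP-1 pattern TGANTCA (purple diamonds) in the promoter windows of 9 target genes. Positions are distances in bases from the annotated start at 0, each grey line being 1 window. CCN2 has 3 TEAD matches, ANKRD1 and NUAK2 have 2, and MYOF, FJX1 and NT5E have 0.

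CCN1 and CCN2, formerly CYR61 and CTGF, encode secreted matricellular proteins that bind integrins and growth factors at the cell surface. CCN1 (probe set 7902687) had 7.21 with siTAZ and 7.69 with siNTC in A549, and 9.60 with siTAZ and 10.24 with siNTC in H441. The siTAZ array was the lower one in each line, and both H441 arrays lay above both A549 arrays. With siTAZ its signal was lower by 1.39-fold (A549) and 1.56-fold (H441), a mean difference of -0.56 ± 0.12 (limma SE, lower in 2 of 2 lines, limma adjusted p = 0.0087). In A549 1.98% of the counted genes had a lower difference, and in H441 0.705%.

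CCN2 (probe set 8129562) did not share that pattern. It had 7.30 with siTAZ and 7.88 with siNTC in A549, and 6.40 with siTAZ and 6.16 with siNTC in H441, where the siNTC value was barely above the table median. In A549 its difference of -0.58 was a 1.497-fold lower signal, with 1.10% of counted genes lower. In H441 the difference was 0.24 in the other direction, or 0.15 with each array centred on its median, and 88.0% of counted genes were lower. The mean over both lines was -0.17 ± 0.14 (limma SE, adjusted p = 0.69). No test of a difference in response between the lines exists for CCN2 or any other gene here, since the 4 arrays would all be used up by that term.

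Of the 4 other CCN family genes, CCN4 and CCN6 were below the table median on all 4 arrays. For CCN3 the difference was 0.21 in A549 and 0.04 in H441, with H441 signals below the table median. For CCN5 it was -0.19 in A549 and 0.45 in H441 (limma adjusted p = 0.76).

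ANKRD1 encodes an ankyrin repeat protein of the nucleus and of muscle sarcomeres, and is among the genes most often measured as a YAP/TAZ readout. Its probe set (7934979) had 5.59 with siTAZ and 6.87 with siNTC in A549, and 5.67 with siTAZ and 5.98 with siNTC in H441. Only the A549 siNTC array reached the table median, and both siTAZ arrays were at similar low values. The A549 difference was -1.28, a 2.44-fold lower signal, and in H441, where both arrays were below the table median, the signal was 1.24-fold lower. The mean was -0.80 ± 0.15 (limma SE), given as a description for the reason stated above. With cyclic loess the limma adjusted p was 0.119, and at the stricter filter on dim genes ANKRD1 was not tested.

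At the cell surface, AXL, NT5E and MYOF gave 3 different patterns. AXL, a receptor tyrosine kinase activated by GAS6, had (probe set 8029006) 9.33 with siTAZ and 9.39 with siNTC in A549, and 7.33 with siTAZ and 8.05 with siNTC in H441. Nearly all of the difference was in H441, 1.64-fold, where 0.353% of counted genes had a lower difference, against 36.1% in A549. Its mean was -0.39 ± 0.14 (limma SE, adjusted p = 0.15). With an intensity trend in the prior, the adjusted p was 0.029.

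NT5E encodes CD73, the ectonucleotidase that makes extracellular adenosine from AMP. Its probe set (8120967) had 9.34 with siTAZ and 8.37 with siNTC in A549, and 11.03 with siTAZ and 11.21 with siNTC in H441. In A549 the signal was 1.96-fold higher, with 99.6% of counted genes at a lower difference, and in H441 it was 1.13-fold lower. The mean was 0.40 ± 0.17 (limma SE, adjusted p = 0.27, or 0.0127 with the intensity trend), and the 2 lines disagreed in sign.

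MYOF, myoferlin, is a membrane protein of the ferlin family involved in membrane repair and vesicle fusion. It had (probe set 7935058) 10.33 with siTAZ and 10.77 with siNTC in A549, and 11.29 with siTAZ and 11.60 with siNTC in H441. With siTAZ it was lower by 1.35-fold (A549) and 1.24-fold (H441). The mean of -0.37 ± 0.12 (limma SE) had an adjusted p of 0.11, or 0.00298 with the intensity trend.

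FJX1, the human homolog of the Drosophila Golgi kinase four-jointed, was likewise similar in the 2 lines. Its probe set (7939365) had 7.78 with siTAZ and 8.08 with siNTC in A549, and 8.22 with siTAZ and 8.58 with siNTC in H441. The signal was 1.23-fold and 1.29-fold lower (mean -0.33 ± 0.12 limma SE, adjusted p = 0.16).

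NUAK2, an AMPK-related kinase that acts on actomyosin, had (probe set 7923753) 7.58 with siTAZ and 8.33 with siNTC in A549, and 7.31 with siTAZ and 7.35 with siNTC in H441. In A549 the signal was 1.69-fold lower, with 0.43% of counted genes at a lower difference. In H441 it was 1.03-fold lower, within the bulk of genes, since 40.9% of counted genes had a lower difference. With siTAZ the A549 value lay near both H441 values. The mean was -0.40 ± 0.14 (limma SE, adjusted p = 0.15, or 0.0472 with each array centred on its median and 0.0346 with the intensity trend).

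AMOTL2 and PTPN14 encode proteins that bind YAP and restrain it, the first an angiomotin and the second a tyrosine phosphatase. AMOTL2 (probe set 8090852) had 6.99 with siTAZ and 7.35 with siNTC in A549, and 8.37 with siTAZ and 8.48 with siNTC in H441. PTPN14 (probe set 7924207) had 7.88 with siTAZ and 7.90 with siNTC in A549, and 8.45 with siTAZ and 8.88 with siNTC in H441. The larger AMOTL2 difference was in A549 (1.29-fold, against 1.08-fold in H441), and the larger PTPN14 difference in H441 (1.35-fold, against 1.01-fold in A549). The means were -0.24 ± 0.12 (limma SE, adjusted p = 0.40) for AMOTL2 and -0.22 ± 0.12 (limma SE, adjusted p = 0.46) for PTPN14.

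At a 1.5-fold threshold, NUAK2 was lower in A549, where 1.07% of counted genes were, and NT5E was higher, where 1.76% were. ANKRD1 was past it too but counted only through its siNTC array. CCN2 missed that threshold in A549 at 1.497-fold and passed it with each array centred on its median or after quantile normalization. In H441, CCN1 and AXL were at least 1.5-fold lower, where 0.974% of counted genes were, and 0 of the 10 genes were 1.5-fold higher, where 0.479% were. After quantile normalization only AXL remained past the threshold in H441, with -0.57 for CCN1. No gene of the 10 was past it in both lines. In RNA of a whole culture, fewer cells with a transcript and less of it per cell cannot be told apart.

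**Figure D3:**
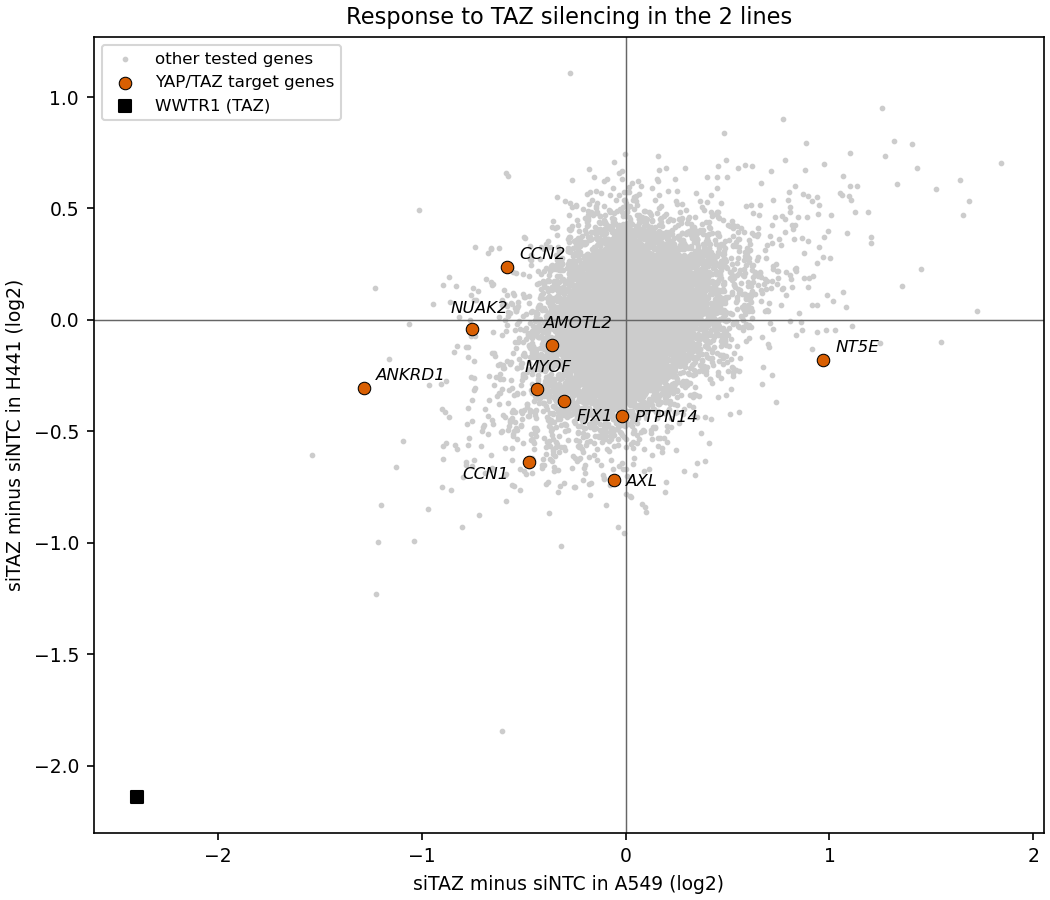
Difference of siTAZ minus siNTC on the log2 scale in A549 (x axis) and H441 (y axis), with 1 array per siRNA and line, for the 10 target genes (orange), WWTR1 (black square) and the other tested genes (grey). CCN1, MYOF and FJX1 lie near equal differences, ANKRD1 and NUAK2 are displaced along the A549 axis, AXL and PTPN14 along the H441 axis, and CCN2 and NT5E lie in quadrants of opposite sign.

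The 12 other genes of the signature were less uniform. Of these, 0 passed the limma test over both lines and 2 had an unadjusted p under 0.05, TGFB2 and CRIM1, both lower. The 12 were lower in both lines for 4 genes, higher in both for 4 and opposite for 4. The median of the mean differences was -0.33 for the 9 genes without ANKRD1 and -0.01 for these 12, a contrast that the choice of the 10 with results known may set. TGFB2, a TGF-beta ligand, was at -0.19 in A549 and -0.41 in H441 (limma adjusted p = 0.24). CRIM1, a membrane protein that binds BMPs, had -0.23 and -0.27 (adjusted p = 0.36). RBMS3, an RNA-binding protein, had 0.08 and -0.38 (adjusted p = 0.69), with its A549 signals below the table median, and ARHGEF17 had 0.08 and 0.22 (adjusted p = 0.66). The remaining 8 had mean differences between -0.15 for F3 and 0.14 for LATS2. Among the TEAD genes, the mean differences ran from -0.28 for TEAD1 to 0.21 for TEAD2, and 0 of 4 passed, the 1 with an unadjusted limma p under 0.05 being TEAD1.

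**Figure D4:**
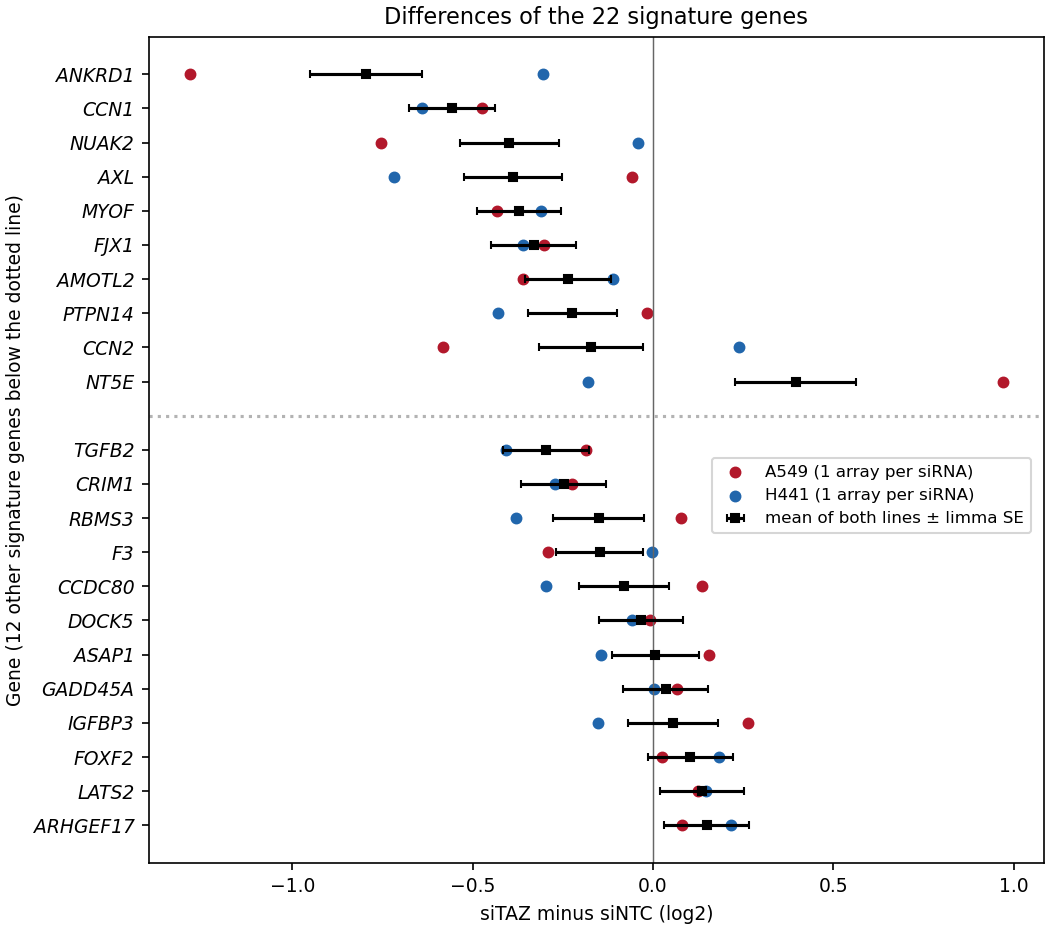
Differences of siTAZ minus siNTC (log2) for the 10 target genes (above the dotted line) and the 12 other signature genes (below it), with red points for A549, blue points for H441 and black squares for the mean of both lines ± limma SE. The means of 9 of the 10 target genes are below 0, while those of the other genes lie between -0.30 and 0.15.

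Most of the 10 genes differed more between the lines than after siTAZ, ANKRD1 being the exception. All 10 differed between A549 and H441 in the same limma fit with siRNA as a block. The 4 genes higher in A549 were CCN2, ANKRD1, AXL and NUAK2, where 19.0% of all tested genes were called higher. The 6 lower in A549 were CCN1, MYOF, FJX1, AMOTL2, NT5E and PTPN14, where 52.8% were called lower, so that a call of either kind was common among all genes. CCN1 averaged 7.45 in A549 and 9.92 in H441, 5.52-fold lower in A549 (A549 minus H441 -2.47 ± 0.12 limma SE, adjusted p = 3.7e-15). NT5E averaged 8.85 in A549 and 11.12 in H441, 4.81-fold lower in A549 (-2.27 ± 0.17 limma SE, adjusted p = 1.5e-11). AXL averaged 9.36 in A549 and 7.69 in H441, 3.17-fold higher in A549 (1.67 ± 0.14 limma SE, adjusted p = 9.3e-11).

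CCN2 went the opposite way to CCN1, averaging 7.59 in A549 and 6.28 in H441, 2.48-fold higher in A549 (1.31 ± 0.14 limma SE, adjusted p = 2.1e-08). Of the inhibitors, AMOTL2 was 2.39-fold and PTPN14 1.71-fold lower in A549. MYOF was 1.86-fold and FJX1 1.39-fold lower, and NUAK2 1.54-fold higher. The least different was ANKRD1, 1.32-fold higher in A549 (limma adjusted p = 0.023), a call that rests on the A549 siNTC array through which it entered and that was lost without the filter on dim genes. That of FJX1 was lost after quantile normalization and after cyclic loess. For ANKRD1 and NUAK2 the A549 siNTC array alone was high, while the A549 siTAZ array lay below both H441 arrays of ANKRD1 and close above those of NUAK2.

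The tested genes whose pair of line differences lay nearest to those of 3 targets were named by Euclidean distance over 2 line differences, which is too few values for more than a description. Nearest to CCN1 were MIA3, with -0.47 in A549 and -0.65 in H441, and APPL2, with -0.46 and -0.63. Nearest to CCN2 were ANKS6, with -0.56 and 0.23, and FOSL2, with -0.55 and 0.21. ANKRD1 had no close neighbour, the nearest being HMOX1, with -1.16 and -0.17, and BNIP2, with -1.09 and -0.54.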

How the data were processed

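Per the labels' protocols, total RNA was column-purified and labelled single-stranded cDNA was hybridised, 1 array for each of the 4 samples. The deposited table holds log2 signals of probe sets that the authors made with RMA, per the submitters' processing notes. That the scale is log2 follows from their range (4.20 to 14.83 over 28869 probe sets). Whether the arrays were normalized jointly is not given in the sources used here, and no detection calls were used. Having 1 array per group limits the precision.

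Gene names came from the platform annotation: 19310 had 1 gene symbol, 1752 several and 7807 none there. Of the 19310, 19279 were matched by Entrez identifier to the GRCh38.p14 gene table. For a gene with several probe sets the one with the highest mean was used. Genes whose highest value reached the table median (12740) were fitted across all genes with limma 3.58.1 (R 4.3.3, functions lmFit and eBayes). Tests were two-sided, with cell line as a block and a prior of 22.3 degrees of freedom. A check on simulated data used the same noise for all genes and equal changes in both lines. It cannot show how the fit treats genes of unlike spread or with unlike responses in the lines. Within a line, genes whose brighter array reached the table median were counted. Counts without ANKRD1 were added after its values were seen. The labels give no replicate numbers. The 8 alternatives were median centring, quantile normalization, cyclic loess, no filter, a filter at the 75th percentile (7.97), the mean of probe sets, no cell line in the fit, and an intensity trend in eBayes.

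The members and lists were chosen with earlier results of these data known. Named were the 10 members, the 4 other signature genes with the largest absolute mean difference, WWTR1, YAP1, the TEAD and CCN genes and the 2 genes nearest to CCN1, CCN2 and ANKRD1. All markers named, F3, LATS2, ASAP1, IGFBP3 and CCDC80 were named after their values were seen.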

Additional observations from a re-analysis of the deposited data

Results flagged for a closer look

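Of 66 genes looked at (the 10 target genes, the 12 other signature genes, WWTR1, YAP1 and the TEAD genes, the 4 other CCN genes, 28 measured markers and the 6 nearest genes), 22 had a siTAZ array that differed from siNTC one way in A549 and the other way in H441. The difference of response between the lines was not tested for any of them, with 1 array per group. Values here are the A549 difference minus the H441 difference on the log2 scale. Of the target genes, NT5E had 1.15 and CCN2 -0.82. Of the 12 other signature genes, ASAP1 had 0.30, IGFBP3 0.42, CCDC80 0.43 and RBMS3 0.46. TEAD3 had -0.27, from -0.04 (A549) and 0.23 (H441). CCN4 had -0.23, CCN5 -0.64 and CCN6 -0.23, of which CCN4 and CCN6 were below the table median on all arrays. Of the epithelial and alveolar markers, EPCAM had 0.22, CDH1 0.36 and NKX2-1 -0.44. The A549 difference of NKX2-1 was only -0.01, from signals below the table median. Of the fibroblast markers, COL1A2 had -0.24, LUM 0.63 and PDGFRA 0.12. The A549 difference of COL1A2 was only -0.0009, and PDGFRA was below the table median on all arrays. Of the endothelial and leukocyte markers, CDH5 had -0.32, VWF -0.14, CD3E 0.21 and CD14 0.76. CDH5, VWF and CD3E were below the table median on all arrays, and CD14 on both H441 arrays. ANKS6 had -0.79 and FOSL2 -0.77, both of which were named for their nearness to CCN2 and so had to differ in sign. Among all 12740 tested genes, 5235 had opposite signs in the 2 lines.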

How the results depend on the processing

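Each of the 10 genes kept its direction over both lines under every alternative in which it was tested, and in each line under every scaling. The calls did not keep. Against 315 genes called over all genes and 2 of the 10 target genes, quantile normalization gave 142 and 2, cyclic loess 20 and 0, no filter on dim genes 92 and 0, and an intensity trend in eBayes 594 and 6 (CCN1, ANKRD1, AXL, MYOF, NUAK2 and NT5E). With the filter at the 75th percentile 1 target gene was called, CCN1, of 8 tested, since ANKRD1 and CCN2 were too dim to enter. Over all genes, 300 of 7198 tested were called with that filter. Without ANKRD1, a choice made after seeing the data, 1 of 9 target genes was called in place of 2 of 10, with a median difference of -0.36 (A549) and -0.31 (H441). With the 75th percentile filter COL1A1 was called among the markers. With no cell line term, limma called 0 genes and 0 targets, with 11 genes and 0 targets at an unadjusted p under 0.05, and the line difference was then part of the spread. Of the 10 targets, ANKRD1 among them, 6 had an unadjusted limma p under 0.05 in either direction after cyclic loess and 6 without the filter. Of all tested genes, 1493 of 12669 had such a p after cyclic loess and 1956 of 18377 without the filter. In both settings 0 targets were called. Median centring gave 400 calls and 3 targets, with NUAK2 added, and the mean of probe sets 300 and 2. The causes were not tested further. The median difference of the targets ran from -0.42 to -0.39 in A549 and from -0.39 to -0.23 in H441 under the other scalings. Leaving out 1 line leaves the single difference of the other, given above, with no test. RMA signals near the table median carry little range, which limits ANKRD1 in both lines and CCN2 in H441.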

Other observations

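The more negative of a gene's 2 line differences was found in the line with its higher mean level for 7 of the 10 target genes, beside 51.5% of all 12740 tested genes. ANKRD1 is among these 7, but its level and its difference in A549 both rest on the siNTC array through which it entered the test. Taken by the siNTC array alone, which enters both the mean level and the difference, the count was again 7 of 10, beside 56.6% of all tested genes. The count was looked at after the values were seen, has no test, and with 10 genes is not distinguished here from the share among all genes.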
